A study of Mus musculus with 12 samples.

Results

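The genes described here are the 10 that set the G1 restriction point of the cell cycle: the D-type cyclins Ccnd1, Ccnd2 and Ccnd3, their kinase partners Cdk4 and Cdk6, the CDK inhibitors Cdkn1a, Cdkn1b, Cdkn2a and Cdkn2b, and Rb1. They were taken by gene symbol from 54532 listed genes, from a list drawn up with earlier results of these data known. All 10 were among the 15504 genes with enough reads to be tested. RNA-seq of poly(A) RNA was carried out on 12 mammary tumors of female MMTV-Neu mice, a model in which the MMTV promoter drives the unactivated, wild-type form of neu in the mammary gland. When a tumor measured 4 mm the mouse was randomized to 10 days on chow without drug (control, 4 mice), with MSU-42011 (4 mice) or with bexarotene (4 mice), each compound at 100 mg/kg of diet. The strain background and age of the mice are not given in the sources used here, and all 3 groups carried the same transgene and received vehicle in powdered chow. Each library came from a piece of 1 frozen tumor, so RNA from the stroma of that piece is included, and the libraries held between 16583413 and 25925027 counted reads. Values are given as normalized CPM, the read count relative to the library's size after TMM scaling (CPM), unless FPKM is named. The 12 tumors expressed the epithelial genes Epcam (693 to 1185 FPKM) and Krt8 (259 to 588 FPKM). The fat cell gene Adipoq stood at 1.43 FPKM or less. A list of 14 fat cell genes, Adipoq included, summed to between 241 and 367 normalized CPM. Only 6 of them had enough reads to be tested, and Adipoq, Plin1 and Lep were not among these.

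Cells commit to DNA replication when D-type cyclins, made in response to growth factor signals, bind CDK4 or CDK6 and phosphorylate the retinoblastoma protein. Phosphorylated RB releases E2F transcription factors, which switch on the genes of S phase. The INK4 proteins (from Cdkn2a and Cdkn2b) block CDK4 and CDK6 directly, whereas p21 (Cdkn1a) and p27 (Cdkn1b) bind cyclin-CDK complexes. In mammary epithelium cyclin D1 is the main D-type cyclin, and mouse tumors driven by neu need it. Cyclin D1 has been proposed as a target of RXR agonists, and both MSU-42011 and bexarotene are agonists of the retinoid X receptor (RXR), a nuclear receptor that pairs with other nuclear receptors at copies of the half-site AGGTCA.

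Promoter sequences were available for 7 of the 10 genes, in 10 windows of 250 bases before a RefSeq start (GRCm38.p6). None was available for Ccnd1, Ccnd2 and Rb1, so their promoters were not searched. The windows of Ccnd3, Cdk4, Cdkn2a and Cdkn2b are shown because these are the 2 pairs whose levels varied together over the tumors, and the window of Cdkn1a because it is the best known p53 target among the 10. The Cdk4 window lies at chr10:127063285-127063534 on the + strand, with the E-box CACGTG, bound by MYC, MAX and other factors of the bHLH family, in capitals.
Cdk4: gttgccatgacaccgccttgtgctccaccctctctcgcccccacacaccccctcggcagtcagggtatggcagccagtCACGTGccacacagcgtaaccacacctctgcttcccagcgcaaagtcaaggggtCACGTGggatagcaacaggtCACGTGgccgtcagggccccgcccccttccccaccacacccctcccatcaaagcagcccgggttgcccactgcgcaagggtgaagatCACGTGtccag
The Ccnd3 window shown, before the more upstream of its 2 starts, lies at chr17:47504801-47505050 on the + strand. Its half-site AGGTCA, here on the reverse strand, is in capitals. The other Ccnd3 window, at chr17:47593217-47593466, held no half-site.
Ccnd3: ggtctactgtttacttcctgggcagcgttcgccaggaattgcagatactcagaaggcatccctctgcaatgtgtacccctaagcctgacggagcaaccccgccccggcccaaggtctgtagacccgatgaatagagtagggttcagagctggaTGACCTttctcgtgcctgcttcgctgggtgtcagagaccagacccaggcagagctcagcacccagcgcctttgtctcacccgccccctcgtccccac
The Cdkn2a window before the p16Ink4a start lies at chr4:89282193-89282442 on the - strand, with the half-site in capitals.
Cdkn2a: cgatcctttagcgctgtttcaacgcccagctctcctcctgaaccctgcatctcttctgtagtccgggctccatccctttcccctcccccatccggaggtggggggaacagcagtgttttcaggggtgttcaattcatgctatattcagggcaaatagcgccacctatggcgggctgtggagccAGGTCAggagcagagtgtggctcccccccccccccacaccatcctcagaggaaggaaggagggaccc
The neighboring Cdkn2b window lies at chr4:89311033-89311282 on the - strand and holds none of the motifs searched.
Cdkn2b: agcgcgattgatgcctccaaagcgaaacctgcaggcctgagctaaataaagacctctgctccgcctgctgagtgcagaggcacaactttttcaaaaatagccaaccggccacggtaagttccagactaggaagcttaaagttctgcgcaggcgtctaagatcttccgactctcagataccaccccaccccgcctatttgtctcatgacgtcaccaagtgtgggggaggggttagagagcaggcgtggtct
The Cdkn1a window at chr17:29090729-29090978 on the + strand precedes the more upstream of its 2 starts, with the p53 response element in capitals.
Cdkn1a: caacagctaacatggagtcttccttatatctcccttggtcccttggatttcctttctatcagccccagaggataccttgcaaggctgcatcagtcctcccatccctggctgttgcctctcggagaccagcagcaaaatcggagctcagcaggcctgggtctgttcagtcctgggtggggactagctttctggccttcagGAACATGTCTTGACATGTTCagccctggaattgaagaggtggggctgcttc

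On both strands of these windows, matches to CACGTG were counted 4 times for Cdk4, from 172 to 11 bases before the start. Of 32851 RefSeq windows of the same length, 6.02% held at least 1 match and 0.0213% held 4 or more. The half-site AGGTCA occurred in 14% of all windows. Among the 7 genes with windows it was found once each for Ccnd3, Cdk4 and Cdkn2a. It lay 97 bases before the upstream Ccnd3 start and 67 bases before the p16Ink4a start. For Cdk4 it lay 102 bases before the start, overlapping an E-box. Cdk6 held 1 E-box, 220 bases before its start. The GC box GGGCGG, found in 32.7% of all windows, was present in at least 1 window of Ccnd3, Cdk4, Cdkn1a, Cdkn1b and Cdkn2a. The p53 response element, taken as 2 adjacent decamers with at most 1 mismatch over 20 positions, occurred in 0.0761% of windows. Among the 7 genes with windows it occurred once, 51 bases before the upstream Cdkn1a start. The mismatch was allowed after the Cdkn1a sequence had been seen. Neither form of the E2F site, TTTCGCGC or TTTGGCGC (0.654% of windows), was matched in the 10 windows.

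Of the 10 genes, 0 passed an adjusted p of 0.05 in any comparison by edgeR's quasi-likelihood test, among 15504 genes of which 0% passed. At an unadjusted p under 0.05 there were 309 genes (1.99%) between MSU-42011 and control, 998 (6.44%) between bexarotene and control, 612 (3.95%) between MSU-42011 and bexarotene and 657 (4.24%) among the 3 groups. The 10 genes gave 0, 2, 1 and 2 at this level. With the replicate number as a block they gave 0 in each comparison, beside 326, 711, 415 and 371 of 15504 genes. They also gave 0 with limma, beside 358, 559, 311 and 310 on log2 (FPKM + 1). On log2 (FPKM + 0.1) it was 0 beside 364, 570, 319 and 312. By edgeR without a block, none was among the higher genes (1.14% of all) or the lower ones (0.851%) with MSU-42011. With bexarotene, Cdkn2b was among the higher genes (4.48%) and Rb1 among the lower (1.96%), and Ccnd2 was among those lower with MSU-42011 than with bexarotene (3.13%). Cdkn2b and Ccnd2 were the 2 among the 3 groups. DESeq2, run as an alternative, called 1, 6, 25 and 5 genes in the same order, and none was one of the 10. At an unadjusted p under 0.05 DESeq2 gave 0, 3, 2 and 2 of the 10, beside 471, 1389 and 926 of 29576 genes and 1045 of 29568. Without a filter on low counts edgeR also gave 0, 3, 2 and 2, beside 667, 1866, 1419 and 1472 of 29907 genes. Without bexarotene tumor 4 it gave 0, 2, 4 and 2, beside 341, 1385, 966 and 960 of 15972. In 30 comparisons of a gene between 2 groups, there was none in which the tumors of one group all lay above those of the other, against 1.97%, 2.03% and 1.17% of all genes in the 3 comparisons. The smallest two-sided p of the exact permutation test over these 30 was 0.143, where 4 tumors against 4 can reach 0.0286, and the adjusted p over the 30 was 0.8 throughout.

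The tumor of bexarotene replicate 1 stood apart from the rest. Its first principal component, over all tested genes, was 115 against -34.2 to 16.2 in the other tumors. The summed level of 18 fibroblast genes was 14155.5 normalized CPM in this tumor and 244 to 1211 in the others, with 244 to 766 in control and 272 to 976 in MSU-42011 tumors. The sum of 24 leukocyte genes was 2779 against 381 to 1075 in the others, and that of 20 epithelial genes 4898 against 7354 to 9379. For 12 skeletal muscle genes it was 346 against 3.35 to 175, and for 16 endothelial genes 952 against 205 to 448. For 10 myoepithelial genes it was 312 against 45.2 to 145, and for 14 fat cell genes 367 against 241 to 323. Of these lists no gene stood at 0 in every tumor, but some had too few reads to be tested. Tested were 20 of 24 leukocyte, 6 of 14 fat cell, 7 of 10 myoepithelial and 5 of 12 skeletal muscle genes. With this tumor 18 of 18 fibroblast genes had a higher mean with bexarotene than control (median log2 value 3.51), and without it 15 of 18 (0.69). Levels of the 10 genes are therefore given tumor by tumor. In RNA from whole tissue, fewer cells of a type and less RNA per cell cannot be told apart.

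**Figure D1:**
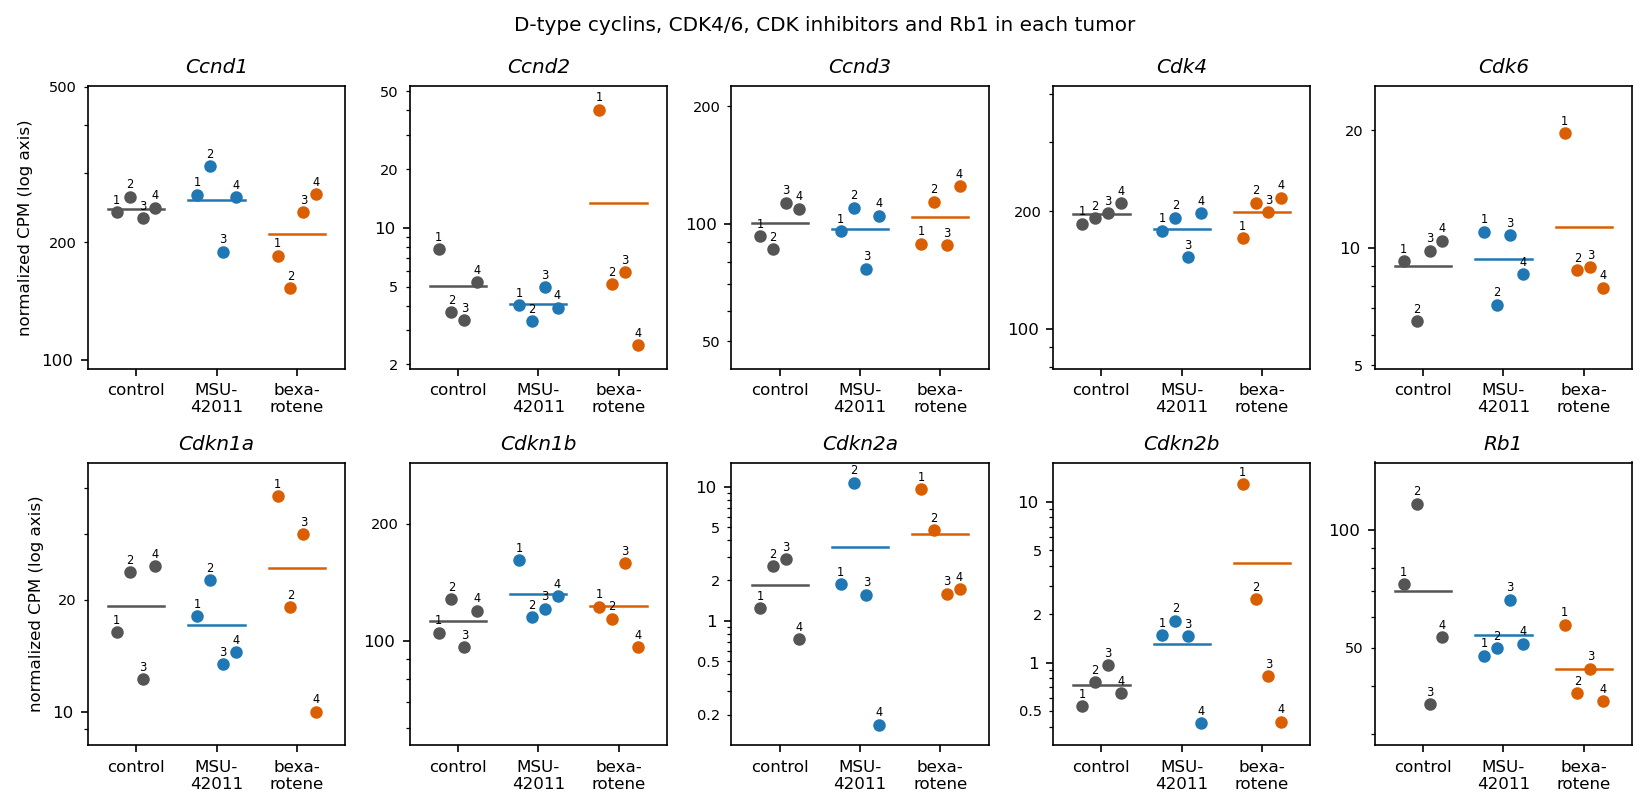
Normalized CPM (log axis) of the 10 genes in each of the 12 tumors, with 1 panel for each gene and points numbered by replicate. Horizontal lines are the group means. The groups overlap in every panel, and bexarotene tumor 1 lies far above the other tumors for Ccnd2 (40.3) and Cdkn2b (12.8).

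Ccnd1 encodes cyclin D1 and lies on chromosome 7 (144929931 to 144939925, - strand, ENSMUSG00000070348; all gene positions are GRCm38). Its levels in control tumors 1 to 4 were 239, 262, 230.2 and 245 normalized CPM. In MSU-42011 tumors they were 265, 313, 189 and 261, and in bexarotene tumors 185, 152, 239 and 265. The control tumors were close to each other, with a coefficient of variation of 5.45%, compared with 19.9% for MSU-42011 and 24.3% for bexarotene. Both treated groups had tumors above and below the controls: MSU-42011 tumors 1 and 2 and bexarotene tumor 4 lay above all controls, and MSU-42011 tumor 3 and bexarotene tumors 1 and 2 below them. Group means were 244 ± 13.3 (SD, n = 4) for control, 257 ± 51.1 for MSU-42011 and 210.3 ± 51.1 for bexarotene.

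The log2 fold change of Ccnd1 was 0.07 between MSU-42011 and control (95% interval -0.32 to 0.47) and -0.21 between bexarotene and control (-0.61 to 0.18), with adjusted p-values of 1.00 and 0.898 by edgeR. Without bexarotene tumor 1 the second value was -0.16 (-0.58 to 0.27). The direction of the MSU-42011 difference turned when MSU-42011 tumor 2, the highest of the 12, was left out (-0.04). A 2-fold loss of Ccnd1 mRNA, a log2 value of -1, lies outside the intervals of both compounds against control. Exons of Oraov1 on the opposite strand share 1100 bases with those of Ccnd1. Since the strand setting of the counting is not given, reads from these bases cannot be assigned to 1 gene.

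Ccnd2 encodes cyclin D2, the D-type cyclin best known from lymphocytes, ovary and stroma (chromosome 6, 127125162 to 127152193). Control tumors held 7.77, 3.69, 3.37 and 5.26 normalized CPM, MSU-42011 tumors 4.01, 3.33, 4.98 and 3.90, and bexarotene tumors 40.3, 5.15, 5.91 and 2.51. A single tumor, bexarotene 1, set the bexarotene mean of 13.5 ± 17.9 (SD, n = 4), which was 4.52 ± 1.78 (n = 3) without it. The log2 fold change between MSU-42011 and bexarotene was -1.73 (unadjusted p = 0.0296 by edgeR, adjusted p = 0.997) and became -0.16 (95% interval -0.93 to 0.61) without that tumor, where 3.07% of all genes lay at this level. Against control the bexarotene value of 1.43 turned to -0.14. The fibroblast and leukocyte genes were at their highest in the same tumor, as given above, and their part in the Ccnd2 level was not tested.

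Ccnd3, for cyclin D3, lies on chromosome 17 (47505051 to 47599691). Its levels were 93.0, 86.3, 113 and 109 normalized CPM in control tumors, 95.9, 110.0, 76.9 and 105 in MSU-42011 tumors and 89.1, 114, 88.3 and 125 in bexarotene tumors. The range over all tumors was 1.63-fold, the narrowest of the D-type cyclins. Log2 fold changes were -0.05 for MSU-42011 and 0.05 for bexarotene against control (0.12 without bexarotene tumor 1), with standard errors of 0.15 each. The sign of both depended on single tumors. Exons of Bysl on the other strand share 361 bases with Ccnd3.

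Per length, Ccnd1 was the most abundant D-type cyclin. In FPKM its median over the tumors was 120.3 (76.9 to 156), against 85.6 (67.9 to 99.6) for Ccnd3 and 2.78 (1.44 to 25.7) for Ccnd2, and it lay above Ccnd3 in 11 of 12 tumors, the exception being bexarotene tumor 2. As a share of the summed FPKM of the 3 D-type cyclins, Ccnd1 made up 58.9%, 63.5%, 54.0% and 56.2% in control tumors, 61.3%, 62.2%, 58.2% and 58.8% in MSU-42011 tumors and 48.1%, 43.4%, 60.4% and 55.3% in bexarotene tumors. The groups overlapped. Ccnd2 made up between 0.638% and 2.33% except in bexarotene tumor 1, where it reached 12.8%. These shares depend on the length used. The length behind the FPKM values was 1994 bases for Ccnd1 and 1180 for Ccnd3, whereas the listed lengths were 4709 and 8775, and with the latter the mean Ccnd1 share was 81.2% in control, 82.5% in MSU-42011 and 76.4% in bexarotene tumors.

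**Figure D2:**
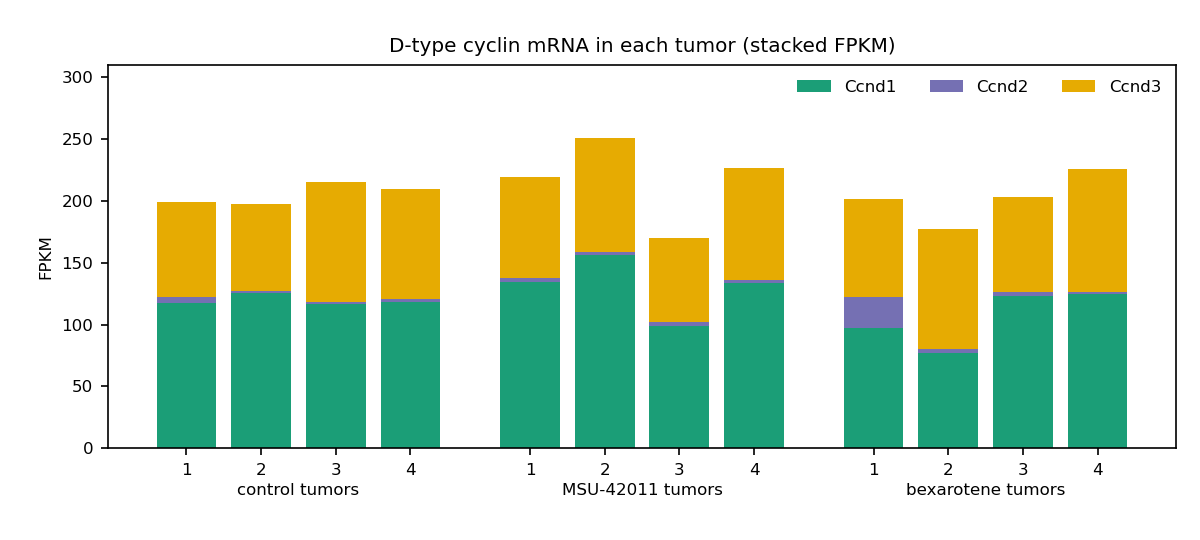
FPKM of Ccnd1, Ccnd2 and Ccnd3 stacked for each of the 12 tumors, by diet group. Ccnd1 and Ccnd3 make up most of every bar, and a visible Ccnd2 part is seen in bexarotene tumor 1 (12.8% of the sum).

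Cdk4 encodes the kinase that D-type cyclins activate in most epithelia (chromosome 10, 127063534 to 127067920). It was the most abundant of the 10 genes per length, with a median of 182 FPKM (149 to 197), and stood above Ccnd1 in 12 of 12 tumors. In normalized CPM the control tumors had 186, 192, 197.5 and 209, the MSU-42011 tumors 178, 192, 153 and 198, and the bexarotene tumors 170.4, 210.4, 199 and 217. The 12 values spanned 1.42-fold, the narrowest range of the 10 genes. The log2 fold change was -0.12 for MSU-42011 (95% interval -0.36 to 0.11) and 0.02 for bexarotene (-0.22 to 0.26, or 0.09 without bexarotene tumor 1) against control. Exons of Tspan31 on the opposite strand share 641 bases with Cdk4.

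Cdk6, the related kinase best known from blood cells, lies on chromosome 5 (3341485 to 3531008) and was much lower. Its levels were 9.26, 6.49, 9.83 and 10.4 normalized CPM in control tumors, 10.998, 7.15, 10.8 and 8.55 in MSU-42011 tumors and 19.7, 8.78, 8.91 and 7.91 in bexarotene tumors. The high value was again bexarotene tumor 1, without which the log2 fold change against control went from 0.33 to -0.08. Of the summed FPKM of the kinase pair, Cdk4 made up 96.0% in that tumor and 97.5% to 98.8% in the other 11.

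Cdkn1a encodes p21, which p53 induces after DNA damage (chromosome 17, 29090976 to 29100727). Control tumors had 16.4, 23.7, 12.2 and 24.6 normalized CPM, MSU-42011 tumors 18.1, 22.6, 13.4 and 14.4, and bexarotene tumors 38.0, 19.1, 29.98 and 9.99. The bexarotene group held both the highest and the lowest of the 12 values. Its log2 fold change was 0.34 against control (standard error 0.36) and 0.03 without tumor 1, and that of MSU-42011 was -0.17 (0.36).

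Cdkn1b encodes p27, which holds cells in G1 and also helps cyclin D assemble with its kinase (chromosome 6, 134920401 to 134925513). Its levels were 105, 128, 96.4 and 120 normalized CPM in control tumors, 161, 115, 121 and 131 in MSU-42011 tumors and 123, 114, 158 and 96.6 in bexarotene tumors. Per length it lay above Cdkn1a in 12 of 12 tumors, with a median of 40.9 FPKM against 13.3 for Cdkn1a. The MSU-42011 tumors lay between 115 and 161, and 2 of them exceeded every control tumor. The log2 fold change was 0.23 (95% interval -0.11 to 0.58, unadjusted p = 0.170 by edgeR), which did not pass, and for bexarotene it was 0.13 (-0.22 to 0.48) with or without tumor 1.

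Cdkn2a and Cdkn2b are neighbors on chromosome 4 (89274471 to 89294653 and 89306299 to 89311039, - strand). Cdkn2a encodes p16Ink4a and, from another start, Arf, which protects p53 from MDM2, and its gene-level count does not separate these products. Cdkn2b encodes p15Ink4b. Cdkn2a stood at 1.25, 2.56, 2.89 and 0.733 normalized CPM in control tumors, at 1.87, 10.7, 1.57 and 0.168 in MSU-42011 tumors and at 9.63, 4.77, 1.60 and 1.72 in bexarotene tumors. It had the widest range of the 10 genes, 64.0-fold, and the lowest value rested on 4 reads in MSU-42011 tumor 4. A floor of 3 reads corresponded to 0.111 to 0.184 CPM, and counting error alone is large at such levels. The log2 fold change of 0.94 between MSU-42011 and control turned to -0.64 when MSU-42011 tumor 2 was left out. Between bexarotene and control it was 1.26 (-0.79 to 3.31), and 0.54 (-1.51 to 2.59) without bexarotene tumor 1.

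For Cdkn2b the values were 0.534, 0.757, 0.962 and 0.646 normalized CPM in control tumors, 1.48, 1.82, 1.46 and 0.419 in MSU-42011 tumors and 12.8, 2.48, 0.823 and 0.429 in bexarotene tumors. In each treated group 1 tumor, the fourth, lay below all controls, while 3 MSU-42011 and 2 bexarotene tumors lay above them. The bexarotene tumors had a log2 fold change of 2.51 against control (standard error 0.88, 95% interval 0.59 to 4.44, unadjusted p = 0.0145 and adjusted p = 0.762 by edgeR). Without bexarotene tumor 1 the value was 0.78 (-0.53 to 2.10). For MSU-42011 it was 0.82 (-1.08 to 2.72), and 0.82 (-0.41 to 2.05) with the spread estimated without that bexarotene tumor.

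Rb1 encodes the retinoblastoma protein, the substrate that CDK4 and CDK6 inactivate (chromosome 14, 73183673 to 73325822, - strand). It was measured at 72.7, 117, 35.9 and 53.3 normalized CPM in control tumors, 47.7, 49.9, 66.4 and 51.2 in MSU-42011 tumors and 57.4, 38.2, 44.3 and 36.5 in bexarotene tumors. Here the spread was widest in the control group, where tumor 2 held the highest and tumor 3 the lowest value of the 12. The log2 fold change between bexarotene and control was -0.66 (95% interval -1.30 to -0.02, unadjusted p = 0.0433, adjusted p = 0.766 by edgeR) and -0.81 without bexarotene tumor 1 (unadjusted p = 0.0214, at which level 3.35% of all genes lay in that fit). The exact permutation test of the same 4 against 4 tumors gave p = 0.257. Leaving out 1 tumor at a time moved the value between -0.88 and -0.30. For MSU-42011 against control it was -0.37 (-1.01 to 0.26). Exons of Rcbtb2 and Lpar6 on the other strand share 488 and 408 bases with Rb1.

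**Figure D3:**
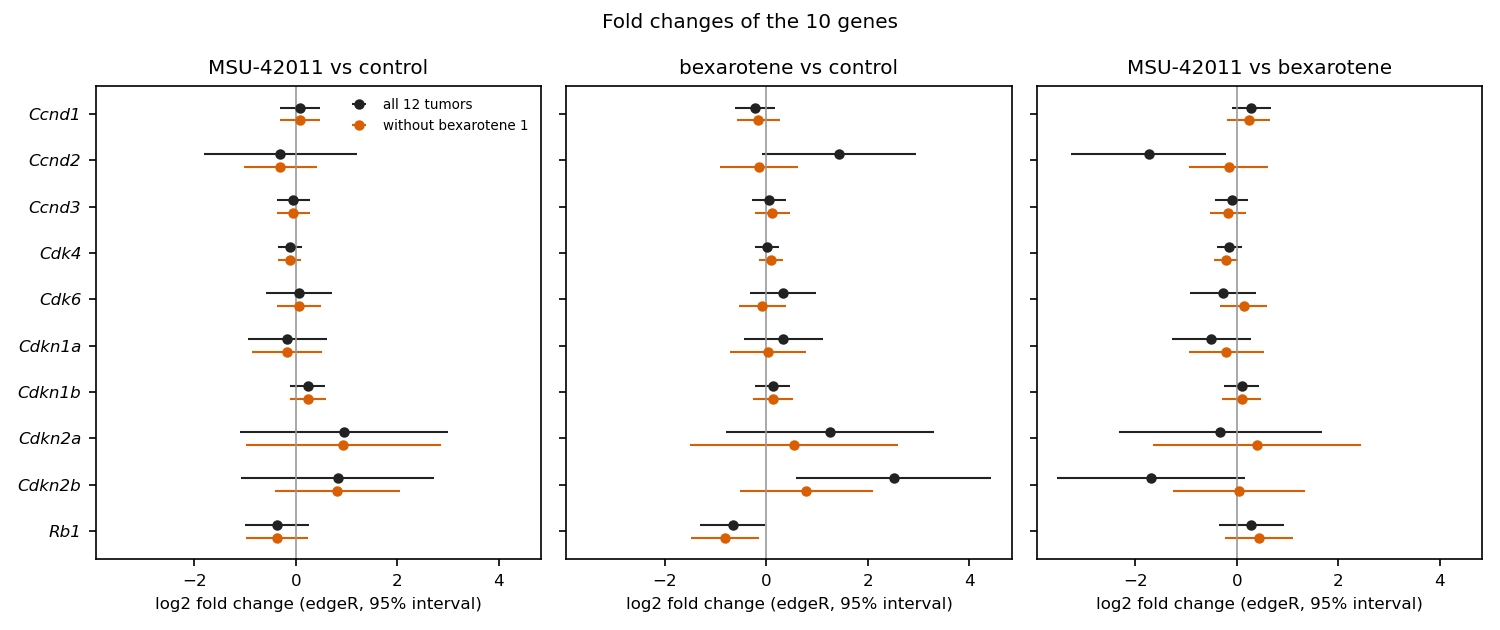
Log2 fold changes of the 10 genes with 95% intervals from edgeR in the 3 comparisons, for all 12 tumors (black) and without bexarotene tumor 1 (orange). Intervals of Ccnd1, Ccnd3, Cdk4 and Cdkn1b are narrow and include 0, while the large bexarotene values of Ccnd2 (1.43) and Cdkn2b (2.51) become -0.14 and 0.78 without that tumor.

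Ordered by median FPKM over the 12 tumors, the genes were Cdk4 (182), Ccnd1 (120.3), Ccnd3 (85.6), Rb1 (42.5), Cdkn1b (40.9), Cdkn1a (13.3), Cdk6 (3.08), Ccnd2 (2.78), Cdkn2a (2.03) and Cdkn2b (0.653). Each of the first 3 lay above its follower in at least 11 of 12 tumors, and so did Cdkn1b, Cdkn1a and Cdkn2a. Rb1 and Cdkn1b could not be placed in order (Rb1 was higher in 6 of 12 tumors), nor could Cdk6 and Ccnd2 or Ccnd2 and Cdkn2a (7 of 12 each). With the listed gene lengths Cdk4 and Ccnd1 still came first, Cdkn1b followed them and Ccnd2 came last.

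At the same dose and duration, the compounds were compared directly for each of the 10 genes. No difference passed the adjusted threshold. Ccnd1 was higher with MSU-42011 by 0.29 on the log2 scale (95% interval -0.10 to 0.68, 0.23 without bexarotene tumor 1), and Cdkn1a lower by -0.51 (-1.29 to 0.28, -0.20 without it). The intervals were narrowest for Cdk4, at -0.14 (-0.38 to 0.09), Cdkn1b, at 0.10 (-0.24 to 0.45), and Ccnd3, at -0.10 (-0.43 to 0.23), and widest for Cdkn2a, at -0.32 (-2.33 to 1.68), and Cdkn2b, at -1.69 (-3.54 to 0.16). Without bexarotene tumor 1 the value of Cdkn2a turned to 0.39 (-1.66 to 2.44) and that of Cdkn2b to 0.04 (-1.26 to 1.34), and Cdk4 stood at -0.21 (-0.45 to 0.03) and Ccnd3 at -0.17 (-0.52 to 0.18). With all tumors the intervals of Cdkn2a and Cdkn2b leave room for more than a 4-fold difference (2 on the log2 scale). Both comparisons with control use the same 4 control tumors, so their values are not independent of each other. Over the 10 genes, 5 were higher with MSU-42011 than control, where 50.3% of all genes were, and 8 with bexarotene (6 without tumor 1), where 55.3% were (51.1% without it). Between the compounds, 3 were higher with MSU-42011 than bexarotene (6 without tumor 1), where 45.1% of all genes were (50.0% without it).

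Downstream of RB, 35 E2F target genes, which encode the replication machinery, were all tested and 0 passed in any comparison by edgeR. Of these, 22 had a higher mean with MSU-42011 than control (median log2 value 0.03) and 31 with bexarotene (0.12, or 29 and 0.13 without bexarotene tumor 1), and 8 were higher with MSU-42011 than bexarotene (-0.09). The members with the smallest p were Pole, a replicative DNA polymerase, at 0.35 with MSU-42011 (unadjusted p = 0.190), and Gins2, of the replicative helicase, at 0.34 with bexarotene (0.0561). Among 26 mitosis genes, 25 had a higher mean with MSU-42011 (median 0.15) and 24 with bexarotene (0.17, or 26 and 0.27 without bexarotene tumor 1), again with 0 called, and 14 were higher with MSU-42011 than bexarotene (0.01, or 9 and -0.08 without it). The median over all tested genes was 0.00 with MSU-42011 and 0.03 with bexarotene. By tumor, the median level of the mitosis genes relative to the control mean was 0.17, 0.65, -0.90 and 0.35 on the log2 scale in MSU-42011 tumors, -0.15, -0.21, 0.33 and 0.10 in controls and -0.08, 0.37, 0.28 and 0.13 in bexarotene tumors. Bub1, a spindle checkpoint kinase, had the smallest p in both comparisons, with 0.55 for MSU-42011 (unadjusted p = 0.0723) and 0.39 for bexarotene (0.190).

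Of 30 further genes of the RB pathway (other cyclins, CDKs, E2F factors and their regulators), 20 had a higher mean with MSU-42011 (median log2 value 0.07) and 22 with bexarotene (0.11, or 23 and 0.07 without bexarotene tumor 1), with 0 called. E2f6, a repressive E2F, stood at 0.27 with MSU-42011 (unadjusted p = 0.0444), and Cdkn1c, which encodes the remaining CIP/KIP inhibitor, p57, at 0.78 (0.0539). With bexarotene, Mnat1, a subunit of the CDK-activating kinase, was at -0.26 (0.0496, -0.26 without bexarotene tumor 1) and Skp2, which targets p27 for degradation, at 0.48 (0.0652, 0.37 without it). Among 30 p53 target genes other than Cdkn1a, 18 had a higher mean with MSU-42011 (median 0.07) and 23 with bexarotene (0.16, or 21 and 0.09 without bexarotene tumor 1), and 0 were called. Gdf15, a stress cytokine, stood at 0.97 with bexarotene (unadjusted p = 0.0136, 0.89 without bexarotene tumor 1) and Phlda3, an AKT inhibitor, at 1.00 (0.0412, 0.30 without it). Cyclin D1 is also controlled by degradation of the protein, and of 18 genes for its turnover 6 had a higher mean with MSU-42011 (median -0.04) and 8 with bexarotene (-0.02, or 7 and -0.03 without bexarotene tumor 1), with 0 called. Xpo1, the nuclear exporter, had the smallest p in both, at 0.23 with MSU-42011 (0.0614) and 0.25 with bexarotene (0.0441, and 0.25 without bexarotene tumor 1). Protein levels were not measured in these files.

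**Figure D4:**
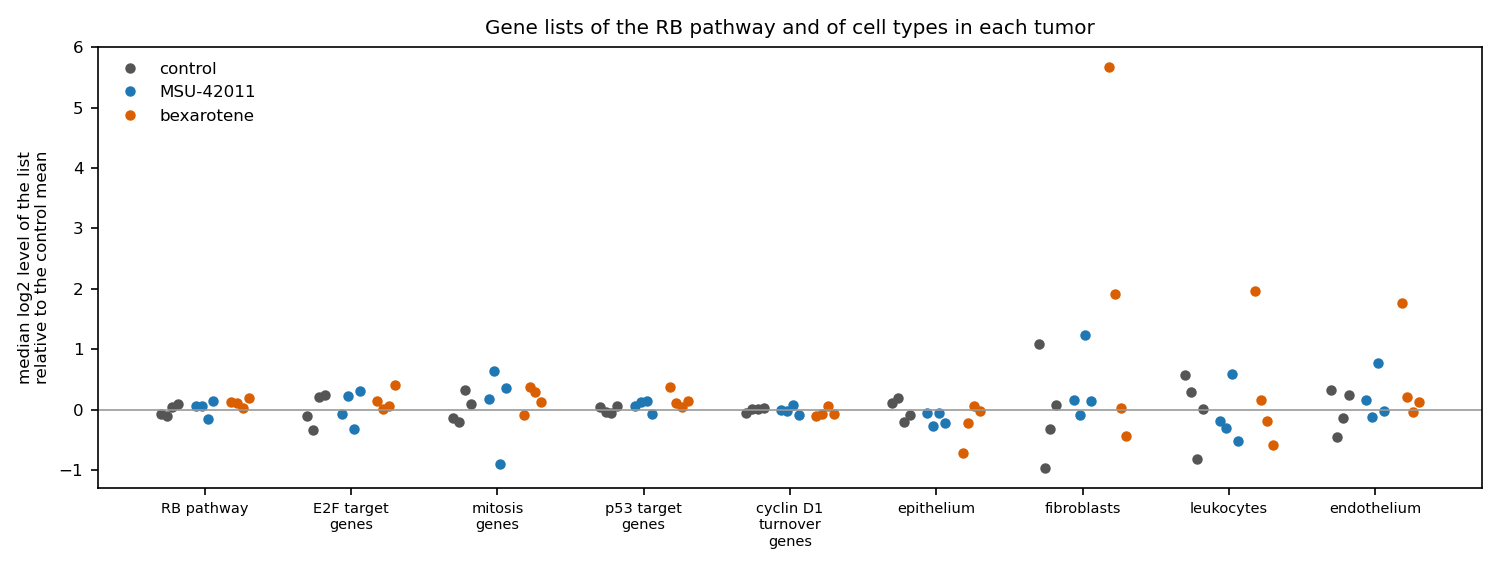
Median over the genes of each list of the log2 level, with the control mean set to 0 and 1 point per tumor, colored by diet group. The lists of the RB pathway, E2F targets, p53 targets and cyclin D1 turnover stay within 0.5 of the control mean, and bexarotene tumor 1 is far above the others for fibroblasts (5.67) and leukocytes (1.96).

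How the 10 genes varied together over the tumors was examined in 45 pairs. By Pearson's r with a permutation test, 2 passed an adjusted p of 0.05. Ccnd3 and Cdk4 had r = 0.81 (adjusted p = 0.0409) and Spearman's rho = 0.71, with r = 0.61 after leaving out the 2 tumors farthest from the median of Ccnd3 and 0.80 without bexarotene tumor 1 (adjusted p = 0.0859, permutation test). With the group means removed r was 0.84. The neighbors Cdkn2a and Cdkn2b had r = 0.75 (adjusted p = 0.0472, permutation test) and rho = 0.79, with 0.69 after leaving out the 2 farthest and 0.73 without bexarotene tumor 1 (adjusted p = 0.186). Neither pair passed when ranks were used over all 45 pairs, where 0 passed. Ccnd1 had r = 0.24 with Cdk4 and 0.20 with Ccnd3, and single tumors moved both. Both were 0.57 without the 2 tumors farthest from the median of Ccnd1 (bexarotene tumors 1 and 2), and leaving out 1 tumor at a time gave -0.003 to 0.64 and 0.02 to 0.58. Ccnd3 and Rb1 were inversely related at r = -0.69 (adjusted p = 0.0995, permutation test).

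Against 6 gene lists, 3 of 60 relations passed by the same permutation test. Ccnd3 followed the E2F target genes with r = 0.80 (adjusted p = 0.0382, rho = 0.69), 0.62 after leaving out the 2 farthest tumors and 0.85 without bexarotene tumor 1 (adjusted p = 0.0624). Ccnd2 followed the fibroblast genes (r = 0.93) and the leukocyte genes (r = 0.90), each with adjusted p = 0.0382. Both relations weakened to 0.56 and 0.58 without the 2 farthest tumors and to 0.62 and 0.69 without bexarotene tumor 1, where the adjusted p-values were 0.225 and 0.144. Without that tumor 0 of the 45 pairs and 0 of the 60 relations passed. Ccnd1 had r = 0.27 with the E2F targets (0.46 without the 2 farthest tumors) and 0.35 with the mitosis genes (adjusted p = 0.444, permutation test). The latter was 0.79 without the 2 farthest tumors (unadjusted p = 0.0155, permutation test) and 0.15 to 0.70 with 1 tumor left out. By ranks over the 12 tumors it was only rho = 0.15 (unadjusted p = 0.636, permutation test). Ccnd1 and the fibroblast genes had r = -0.66, which did not pass (adjusted p = 0.110, permutation test), and rho = -0.66. Without the 2 farthest tumors r was -0.57. Without bexarotene tumor 1 r was -0.78 (adjusted p = 0.134, permutation test) and rho was -0.56. Rb1 and the E2F targets had r = -0.71, which did not pass (adjusted p = 0.0547, permutation test), and rho = -0.54. Without the 2 tumors farthest from the median of Rb1 (control tumors 1 and 2), r was -0.47.

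**Figure D5:**
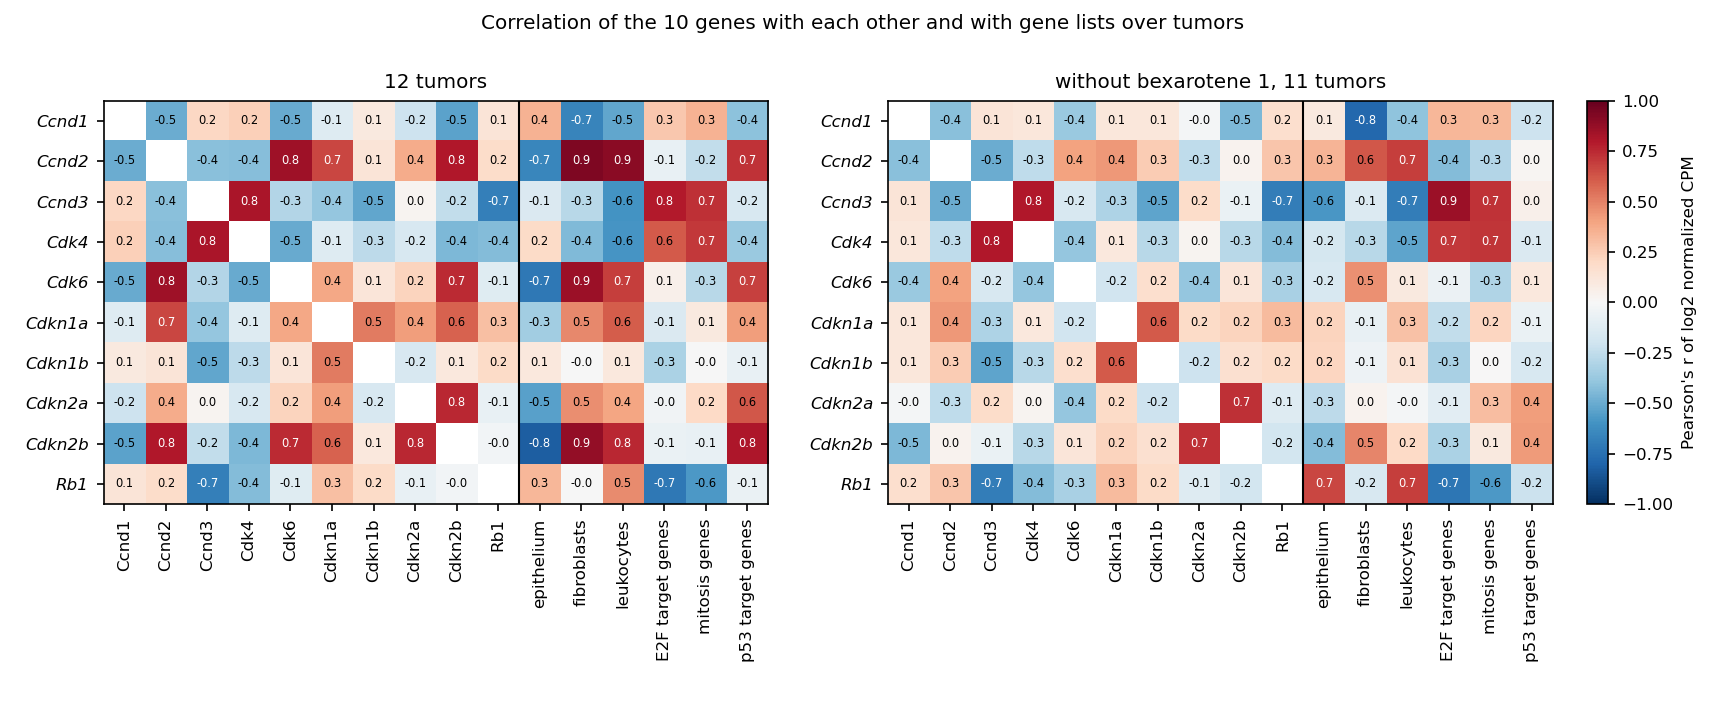
Pearson's r of log2 normalized CPM between the 10 genes, and with the levels of 6 gene lists (right of the line), over 12 tumors and over 11 tumors without bexarotene tumor 1. Red is positive and blue negative. The block of high values among Ccnd2, Cdk6, Cdkn2b and the fibroblast genes fades without that tumor, while those of Ccnd3 with Cdk4 (0.80) and of Cdkn2a with Cdkn2b (0.73) stay high.

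The genes whose levels ranked the tumors most like each of the 10 were taken from all tested genes by Spearman's rho over the 12 tumors, given here as a description. For Ccnd1 they were Dnttip1 (0.90), Pole3 (0.89), Dnajc24 (0.88), Alg14 (0.87) and Gm43268 (0.87). Ccnd3 was closest to the RNA helicase gene Ddx39 (0.99), Nob1 (0.98) and the acetyltransferase gene Kat2a (0.97). For Cdk4 they were Ptpmt1 (0.92), Swi5 (0.92) and Psmg4 (0.92). Ccnd2 ranked with Tnfrsf26 (0.95), 1190002N15Rik (0.94) and Marcks (0.93), and Cdk6 with Ipo9 (0.93), Fscn1 (0.92) and Gpihbp1 (0.92). For Cdkn1a they were Zfp984 (0.90), Gm43963 (0.88) and Zfp958 (0.85), and for Cdkn1b Veph1 (0.92), Fmr1 (0.92) and Prrg4 (0.90). Cdkn2a ranked with AC149090.1 (0.91), Adcy6 (0.91) and Tsc22d4 (0.90), and Cdkn2b with Gpr157 (0.87), Ppara (0.87) and Fndc1 (0.86). Rb1 was closest to Itgax, which encodes the dendritic cell and macrophage integrin CD11c (0.96), Calhm6 (0.94) and Basp1 (0.93). Rb1 itself had rho = 0.76 with the leukocyte genes over the 12 tumors (r = 0.47, adjusted p = 0.280, permutation test).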

How the data were processed

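Tumors were grouped by their labels into control, MSU-42011 and bexarotene (n = 4 each). The authors deposited raw read counts for each gene, without normalization, and FPKM values. The submitters' processing notes name STAR 2.6.1d, featureCounts 1.5.0-p3 and DESeq2. The genome build and strand setting are not given in the sources used here, and the coordinates of 98.3% of 54409 genes found in both were those of GENCODE M21 (GRCm38). The deposited FPKM equal the count divided by the tumor's total and by a length, and for the 10 genes the listed length was 1.00 to 7.44 times that length, so the order of levels between genes depends on it. The deposited gene length was used only for that comparison.

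Counts were scaled with TMM and filtered with filterByExpr at its defaults (15504 genes), and edgeR's quasi-likelihood test was fitted to all 12 tumors with 1 mean per group and no covariate, with Benjamini-Hochberg adjustment over all tested genes. The study analyzed counts with DESeq2, which was run as an alternative. Correlations used log2 (normalized CPM + 0.5) and 100000 permutations. The other alternatives were DESeq2 size factors, no filter, at least 10 counts in every tumor, the replicate number as a block, each tumor left out, limma on log2 (FPKM + 1) or log2 (FPKM + 0.1), and for correlations Spearman's rho, added after the data were seen. Versions were DESeq2 1.42.0 and limma 3.58.1 beside edgeR 4.0.16, under R 4.3.3, and the fits were tested on simulated data.

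The 10 genes and the gene lists were chosen with earlier results of these data known. Named genes are the 10, up to 4 per list and comparison with the smallest p, and the 5 (Ccnd1) or 3 genes ranked most like each. Per the methods there were 4 mice and 4 samples in each group, and no 2 libraries of a group agreed within sampling noise. Total counts ran from 16583413 to 25925027 per tumor (median 19342536), and floors for single counts cover counting error only. The 95% intervals of fold changes come from edgeR's fit and include the spread among tumors.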

Additional observations from a re-analysis of the deposited data

Results flagged for a closer look

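In 30 groups of 4 tumors (10 genes in 3 groups), a tumor was far from the other 3 by Dixon's test in 4. The test's rate of about 1 in 20 by chance is for normally distributed values, which was not checked for CPM. The 30 groups share tumors and are not independent, so the count of 4 cannot be set against that rate. In the bexarotene group this was tumor 1 for Ccnd2 (40.3 normalized CPM, others 2.51 to 5.91), for Cdk6 (19.7, others 7.91 to 8.91) and for Cdkn2b (12.8, others 0.429 to 2.48). Fibroblast genes summed to 14155.5 normalized CPM in this tumor, 31.4 times the median of the others, and leukocyte genes to 2779, 4.67 times that median. Their part in the 3 values was not tested. In the MSU-42011 group tumor 2 had 10.7 normalized CPM of Cdkn2a (others 0.168 to 1.87). Its fibroblast and leukocyte levels lay at -0.09 and -0.30 on the log2 scale relative to the control mean.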

How the results depend on the processing

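None of the 10 genes was called in any comparison under any alternative, with 8 of them testable at 10 or more counts in every tumor (not Cdkn2a and Cdkn2b). Where edgeR called 0 genes throughout, DESeq2 called 25 between the compounds, 5 among the 3 groups, 6 between bexarotene and control and 1 between MSU-42011 and control. Leaving out 1 tumor gave 0 or 1 gene for bexarotene against control and among the 3 groups (1 without MSU-42011 tumor 2). With the replicate block 0 genes were called. Deviations of same-numbered tumors correlated between -0.35 and 0.35, with 4 of 12 over 0.1, so the numbers were not taken as pairs, and the block changed no call. It moved Cdkn2b between bexarotene and control from 2.51 to 1.55 (unadjusted p = 0.0970 by edgeR), Ccnd2 between the compounds from -1.73 to -1.005 and Cdkn2a between MSU-42011 and control from 0.94 to 0.16. Of 564 fold changes of the 10 genes under alternatives, 541 kept their direction and 23 turned, 2 of them other than by leaving out a tumor: Ccnd3 for MSU-42011 against control was 0.0056 with limma on log2 (FPKM + 1) and 0.0057 on log2 (FPKM + 0.1). Leave-one-out ranges that crossed 0 were, for MSU-42011 against control, Ccnd1 -0.035 to 0.20, Ccnd3 -0.12 to 0.043, Cdk6 -0.073 to 0.17 and Cdkn2a -0.64 to 1.34. For bexarotene against control they were Ccnd2 -0.14 to 1.76, Ccnd3 -0.055 to 0.12, Cdk4 -0.027 to 0.089, Cdk6 -0.077 to 0.46 and Cdkn1b -0.016 to 0.22. For MSU-42011 against bexarotene they were Ccnd3 -0.17 to 0.0023, Cdk6 -0.41 to 0.13, Cdkn1b -0.0072 to 0.25, Cdkn2a -1.89 to 0.39 and Cdkn2b -2.06 to 0.036. Correlated pairs numbered 2, and 0 by Spearman's rho or 0 to 2 with a tumor left out. With group means subtracted the smallest unadjusted p of the permutation test were 0.00057 (Ccnd3 and Cdk4), 0.00116 (Ccnd2 and Cdk6, r = 0.85) and 0.00258 (Ccnd3 and Rb1, r = -0.75). Cdkn2a and Cdkn2b, which passed in the main test, then had r = 0.72 and a larger unadjusted p than these (0.00991, permutation test). The pairs with the smallest p were thus not the 2 of the main test. Correlations with lists numbered 3, and 9 on log2 (FPKM + 1), 11 with group means subtracted, 0 by rho and 0 to 5 with a tumor left out. With group means subtracted, values were permuted over all 12 tumors without allowance for the means removed. Those p-values can therefore be too small and the count of 11 too high. With listed lengths the mean shares for control, MSU-42011 and bexarotene were 81.2%, 82.5% and 76.4% for Ccnd1, 0.840%, 0.690% and 2.64% for Ccnd2, and 98.9%, 98.8% and 98.6% for Cdk4 in the kinase pair. The cause was not tested beyond the length itself.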

Other observations

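Where a protein-coding gene on the other strand shares exon bases with one of the 10, the levels of both were compared over the 12 tumors in 5 pairs. Ccnd3 and Bysl had r = 0.72 (adjusted p = 0.0464, permutation test) and rho = 0.80 (adjusted p = 0.0121), with r = 0.94 without the 2 tumors farthest from the median of Ccnd3 and 0.70 without bexarotene tumor 1. Ccnd1 and Oraov1 had r = 0.57 (adjusted p = 0.134, permutation test) and rho = 0.70 (adjusted p = 0.0362, permutation test). For Rb1 the values were 0.42 with Rcbtb2 and 0.19 with Lpar6, and Cdk4 had 0.05 with Tspan31. These pairs were chosen after the values were seen.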
